A study of Bos taurus with 8 samples.

Results

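Genes for subunits of the vacuolar proton ATPase were followed in rumen epithelium of Holstein bull calves on 2 diets. The members are the 10 genes ATP6V0A1, ATP6V0B, ATP6V0C, ATP6V0D1, ATP6V1A, ATP6V1B2, ATP6V1C1, ATP6V1D, ATP6V1E1 and ATP6V1H, found by gene name among 14952 names on a bovine Agilent array. Each had 1 probe, and 9 of the 10 probes were bright enough to test. The control group received a high-grain diet with corn flakes, and in the WP group wood kraft pulp, a cellulose fibre, took the place of a part of the corn flakes. All animals thus ate a grain-based diet. The study used 5 rumen-fistulated bulls of 215.2 ± 20.4 kg and 7.4 ± 0.3 months of age in a cross-over with 14 days per diet and no wash-out. The arrays analysed here come from calves 21, 23, 24 and 25, with 1 array per calf and diet, 8 in all. The sources used here do not give the order in which a calf received the diets, so an effect of the earlier diet cannot be told apart from calf. All 16 rumen epithelium markers examined, among them KRT5, DSP and SLC16A1, were well above background on all 8 arrays.

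The vacuolar ATPase is a rotary pump that spends ATP to move protons across membranes. Its V1 sector, in the cytosol, binds and hydrolyses ATP, and its V0 sector, in the membrane, carries the protons. The pump acidifies lysosomes and endosomes in nearly every cell, and in some epithelia it also sits in the plasma membrane and exports acid. Rumen epithelium takes up short-chain fatty acids from the fermenting contents and has to dispose of the protons that come with them.

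The measurement is the brightness of a 60-base probe bound by Cy3-labelled RNA. The probes of 5 members and of ATP6V1C2, an alternative form of the C subunit described further on, are printed here in the 5′ to 3′ direction because the values below rest on them.
ATP6V1A: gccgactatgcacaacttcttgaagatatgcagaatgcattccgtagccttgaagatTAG
ATP6V0D1: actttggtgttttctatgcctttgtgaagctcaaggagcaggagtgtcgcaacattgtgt
ATP6V0B: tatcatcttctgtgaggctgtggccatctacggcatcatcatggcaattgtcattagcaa
ATP6V1H: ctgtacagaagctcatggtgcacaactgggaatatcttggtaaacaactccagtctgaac
ATP6V0A1: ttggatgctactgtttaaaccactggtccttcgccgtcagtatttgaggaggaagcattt
ATP6V1C2: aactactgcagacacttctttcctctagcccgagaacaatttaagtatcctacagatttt
Capitals mark the stop triplet that ends the ATP6V1A probe. On the UMD 3.1 assembly the array design places these probes at chr1:58937909-58937968 (plus strand, ATP6V1A), chr18:35166451-35166510 (minus, ATP6V0D1), chr3:102672501-102672560 (minus, ATP6V0B), chr19:43234270-43234329 (plus, ATP6V0A1) and chr11:86858200-86858259 (minus, ATP6V1C2). The ATP6V1H probe lies on chr14:23511733-23526808 (minus strand), a span of 15076 bases for 60 bases of probe, so it crosses at least 1 exon junction. The design gives no genome position for the ATP6V1B2 probe. Exons and UTRs of the other probes were not analysed here.

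A level below is log2 of a probe's processed signal minus the 75th percentile of its array, so a level of 0 lies at that percentile. Levels of different probes are not compared. A difference is the WP level minus the control level of the same calf, and an error given as SD is over the 4 within-calf differences. Adjusted p-values are those of limma with calf as a block, over all 10236 probes tested. The WP array of calf 24 stood apart: control probes for the viral E1A sequence had a median signal of 40.7 on it, against 1.36 to 1.97 on the other arrays, its negative controls a median of 4.06, against 1.20 to 1.90, and 73 of its spots were outlier-flagged, against 2 to 6. Its median signal over all probes was also the highest, while the others had 25.9 to 41.5. Without calf 24 the members' median difference given next was -0.30, and the part of this array in the values of dim probes was not tested.

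Subunits of both sectors had lower mean levels on the WP diet, by small amounts that did not pass the test. Of the 9 tested members, 8 had a mean difference below 0, with a median of -0.24 over the 9, and ATP6V0A1 lay above 0. Over all tested probes, 35.6% of differences were below 0 and their median was 0.087. Among the 3739 probes brighter on average than their arrays' 75th percentile the share was 49.8% and the median 0.0013. The 6 members in that bright range were all below 0, with a median of -0.25. No member passed an adjusted p of 0.05 in limma, and 0 of 9 had an unadjusted p under 0.05. Across the array 0 probes passed the adjusted threshold (0.0% of those tested), while 6.99% had an unadjusted p under 0.05, and 1.75% had it with a lower value on WP.

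ATP6V1A, of the V1 sector, is the catalytic subunit that hydrolyses ATP, and it had control levels of -0.53, 0.22, -0.68 and -0.54 in calves 21, 23, 24 and 25, and WP levels of -1.22, -0.74, -0.79 and -0.46. The control array of calf 23 was highest and the WP array of calf 21 lowest, and the diets overlapped. The difference was -0.42 ± 0.49 (SD, n = 4), which makes the control signal 1.34-fold that on WP. It was lower in 3 of 4 calves, with an adjusted p of 0.658 in limma, and it was -0.24 without calf 23.

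ATP6V1D, part of the central stalk that turns inside the V1 head, had control levels of 3.12, 3.57, 3.0 and 2.95 and WP levels of 2.44, 2.82, 2.86 and 3.18 in the same order of calves. Calves 21 and 23 had the highest control values and the lowest WP values, and calf 25 went the other way. The difference was -0.34 ± 0.47 (SD, n = 4; adjusted p = 0.667 in limma), with -0.22 without calf 21, -0.19 without calf 23 and -0.52 without calf 25. ATP6V1E1, a peripheral stalk subunit that holds the head still, had control levels within 4.51 to 4.66, a narrow range, and WP levels of 4.16, 4.38, 4.28 and 4.62. Its difference was -0.21 ± 0.19 (SD, n = 4; adjusted p = 0.667 in limma), and only the WP array of calf 25 reached the control range.

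The subunits tied to assembly and regulation of the V1 sector had the smallest differences among those below 0. ATP6V1C1, the C subunit, which joins the sectors and is released when they come apart, had control levels of -0.35, -0.17, -0.29 and -0.30 and WP levels of -0.65, -0.33, -0.43 and -0.35. It was lower in 4 of 4 calves, by -0.16 ± 0.10 (SD, n = 4; adjusted p = 0.678 in limma). ATP6V1H, a regulatory subunit at the junction of the sectors, had differences of -0.41, -0.49, -0.064 and 0.50 in calves 21, 23, 24 and 25. Its mean of -0.12 ± 0.45 (SD, n = 4) was far smaller than the spread between calves (adjusted p = 0.856 in limma), and leaving out calf 21, 23 or 25 gave -0.019, 0.0094 and -0.32.

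ATP6V1B2, the nucleotide-binding B subunit found in most tissues, could not be tested. Its probe was well above background on 0 of 4 control arrays and on 1 of 4 WP arrays. That array was the WP array of calf 24, at a level of -3.44, while the other 7 lay between -6.71 and -5.44. It is the array that stood apart on control probes, and no fold is given. ATP6V1B1, the B subunit best known from acid-secreting epithelia such as kidney, was well above background on all 8 arrays. Its levels were 3.04, 3.48, 2.76 and 2.97 on control and 3.57, 3.18, 2.99 and 3.31 on WP, with a difference of 0.20 ± 0.36 (SD, n = 4; adjusted p = 0.719 in limma). It was higher in 3 of 4 calves, and it was -0.11 within slide row 2.

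**Figure D1:**
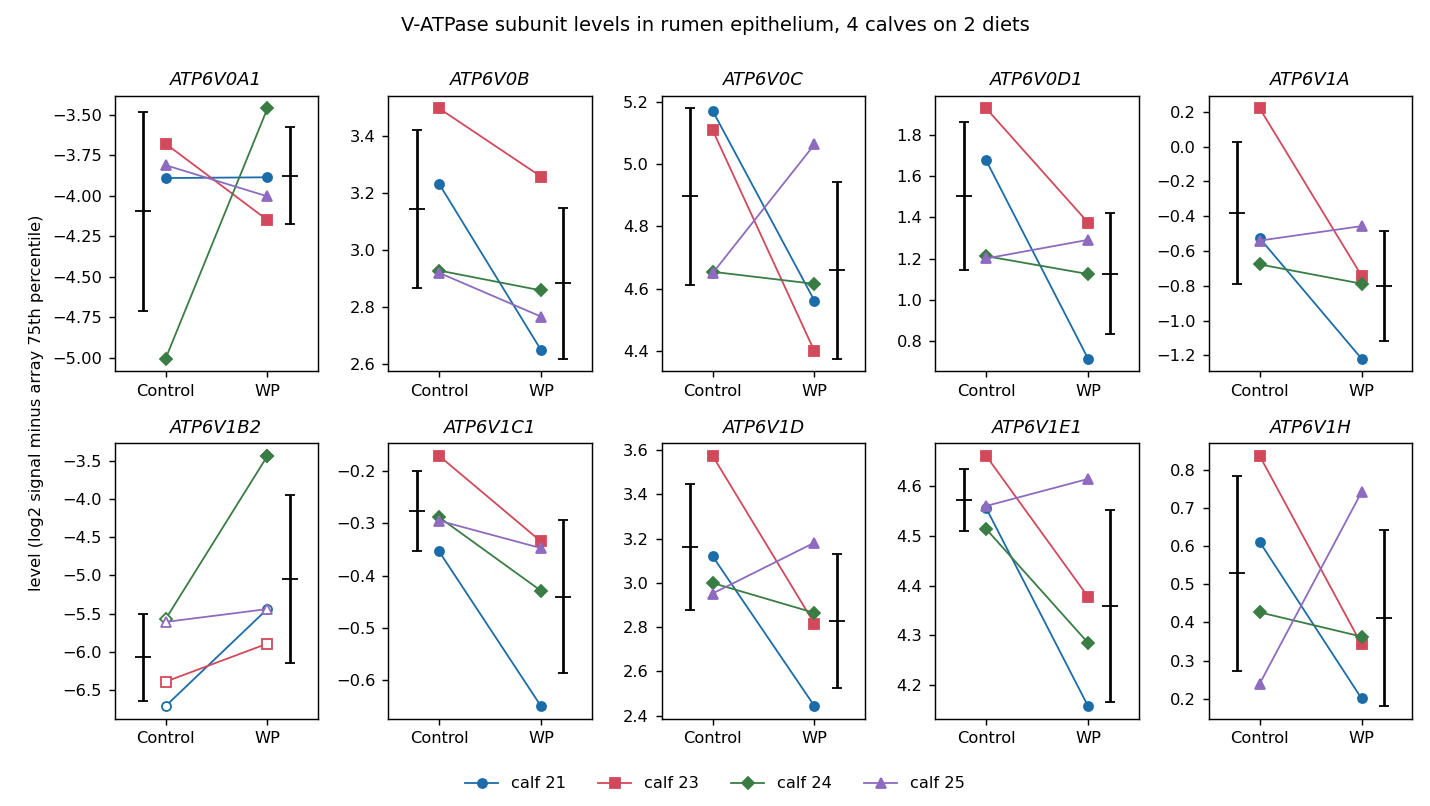
Level (log2 processed signal minus the array's 75th percentile) of each of the 10 members on the control and WP diets, with a line for each of calves 21, 23, 24 and 25 and the mean ± SD of 4 arrays in black; open symbols mark arrays where ATP6V1B2 was not well above background, and each panel has its own vertical scale. ATP6V0B and ATP6V1C1 were lower on WP in all 4 calves, 6 other tested members and the dim ATP6V1B2 were higher on WP in calf 25, and ATP6V0A1 was far higher on WP in calf 24.

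Among the V0 members the largest difference was that of ATP6V0D1, which couples the turning stalk to the membrane ring. Its control levels were 1.67, 1.93, 1.21 and 1.20 and its WP levels 0.72, 1.37, 1.13 and 1.29 in calves 21, 23, 24 and 25. The control arrays of calves 21 and 23 stood above all other arrays. The difference was -0.38 ± 0.47 (SD, n = 4), 1.30-fold in favour of the control diet, with an adjusted p of 0.660 in limma. It was -0.18 without calf 21, -0.16 within slide row 1 and -0.59 within row 2.

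The proteolipid subunits ATP6V0B and ATP6V0C form the ring that carries protons. ATP6V0B had control levels of 3.23, 3.50, 2.93 and 2.92 and WP levels of 2.65, 3.26, 2.86 and 2.77. It was lower in 4 of 4 calves, by -0.26 ± 0.22 (SD, n = 4; adjusted p = 0.658 in limma), and by -0.15 without calf 21. ATP6V0B and ATP6V1C1 were the 2 of 9 tested members with that pattern, which 5.39% of all tested probes had. ATP6V0C had control levels of 5.17, 5.11, 4.65 and 4.65 and WP levels of 4.56, 4.40, 4.62 and 5.06. Its differences thus ran from -0.71 in calf 23 to 0.41 in calf 25, with a mean of -0.24 ± 0.52 (SD, n = 4; adjusted p = 0.738 in limma). The mean was -0.11 without calf 21, -0.078 without calf 23 and -0.45 without calf 25.

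ATP6V0A1, a form of the large membrane subunit that lines the proton path, was the only tested member with a mean above 0. Its control levels were -3.89, -3.68, -5.00 and -3.81 and its WP levels -3.89, -4.15, -3.46 and -4.0. Both the lowest value, on control, and the highest, on WP, came from calf 24. The difference was 0.22 ± 0.90 (SD, n = 4; adjusted p = 0.843 in limma), it was -0.22 without calf 24, 0.45 without calf 23, 0.36 without calf 25 and -0.42 with quantile scaling, and so its direction is not set.

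The lower levels belonged mainly to calves 21 and 23. The 9 tested members had a median difference of -0.58 for calf 21 and -0.49 for calf 23, but of -0.087 for calf 24 and 0.083 for calf 25. All tested probes had medians of 0.12, 0.028, 0.14 and -0.00024 for the same calves. Lower on WP were 8 of 9 members for calf 21, 9 for calf 23, 8 for calf 24 and 3 for calf 25. Without calf 21 the median over the members was -0.15. With quantile scaling the members' medians were -0.56, -0.51, -0.066 and 0.089.

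This split of calves coincided with the layout of the slide. For calves 21 and 23 the control array lay in row 2 and the WP array in row 1, and for calves 24 and 25 the reverse. With calf and row as blocks the diet differences of the members had the same values, with a median of -0.24. The layout fixes this in advance, because each diet has as many arrays in either row, so it says nothing about row. The row term, row 2 minus row 1, was above 0 for 9 of 9 members, with a median of 0.38, against 54.4% of all probes above 0 and a median of 0.028. It had an unadjusted p under 0.05 in limma for 4 of 9 members, which 7.30% of all probes had with a higher value in row 2. ATP6V1A gave a row term of 0.41 ± 0.11 (SE), with an adjusted p of 0.343, and 0 probes passed an adjusted p of 0.05 (0.0%). In this layout the row term is the same quantity as an unequal diet difference between calves 21 and 23 and calves 24 and 25, and these cannot be told apart. The order of the diets is not given, so an effect of period that followed these pairs of calves cannot be told apart from them either. Within row 1, where different calves are compared, 7 of 9 members were lower on WP with a median of -0.17, and within row 2 8 of 9 with a median of -0.30. Unscaled array brightness also differed: the 75th percentile of signal was 207 to 292 in row 1 and 246 to 334 in row 2, and its part in the result was not tested.

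**Figure D2:**
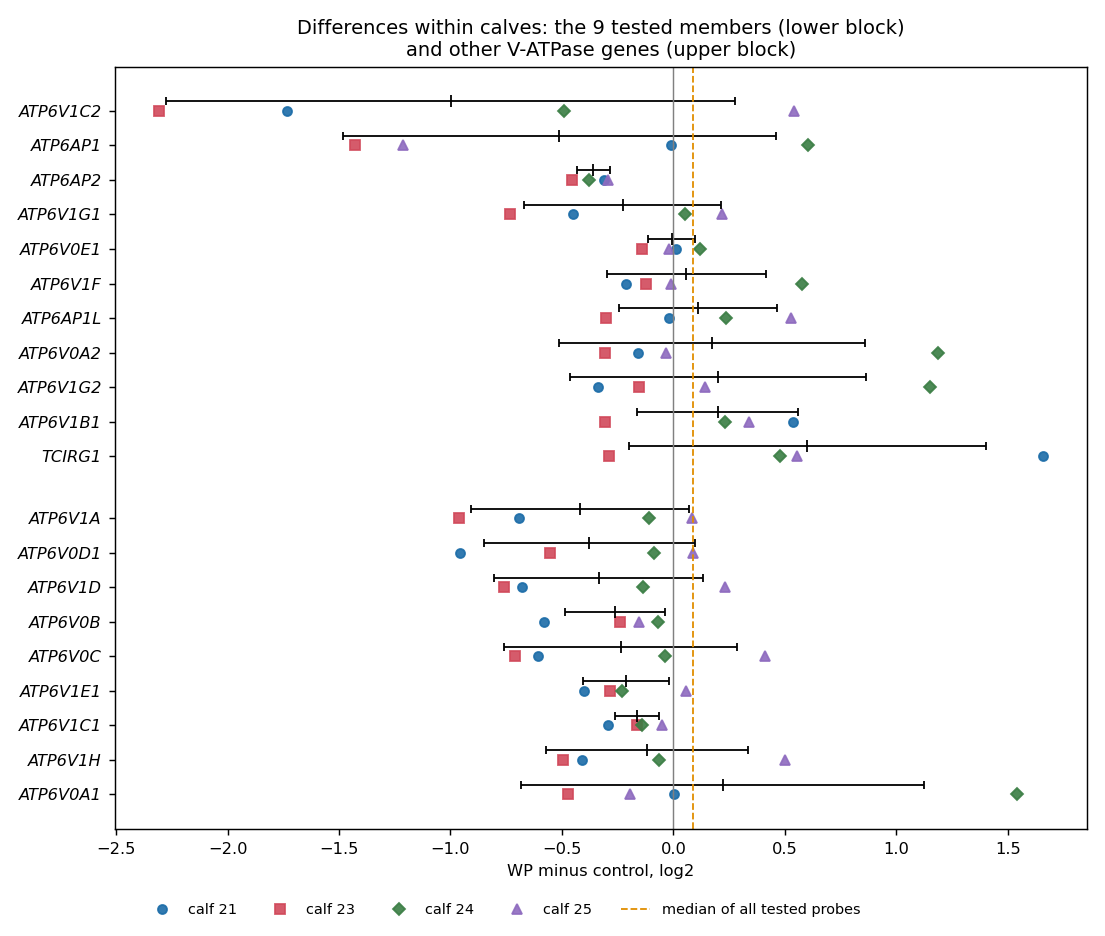
WP minus control difference (log2) of each of the 9 tested members (lower block) and 11 other tested V-ATPase genes (upper block), with a symbol per calf, the mean ± SD of 4 calves in black above it, a grey line at 0 and a dashed line at the median of all tested probes, 0.087. Calves 21 and 23 lie to the left for most members and calf 25 to the right, and ATP6AP2 has the narrowest spread of the genes away from 0.

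The tested subunits had similar profiles from array to array, apart from ATP6V0A1. Over the 8 arrays, the 36 pairs of the 9 tested members had a median Pearson's r of 0.73, from -0.16 to 0.98, and 34 of 36 were above 0. These are descriptions over arrays that come in pairs from 4 calves and share scaling and slide. The 28 pairs without ATP6V0A1 were all above 0, from 0.36 to 0.98, with a median of 0.78, whereas the 8 pairs with ATP6V0A1 had a median of 0.089. The ATP6V0A1 probe was dim, at -5.00 to -3.46. Its lowest and highest values both came from calf 24, the highest on the WP array that stood apart. The part of this in its low r was not tested. ATP6V1A and ATP6V1D were the closest pair, at 0.98, followed by ATP6V0B and ATP6V0D1 at 0.91. Removing each calf's mean left a median of 0.85 over the 36 pairs. With a pair of arrays per calf, that value rests on the 4 within-calf differences alone and includes any diet difference the members share.

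Set against the mean of the other members, ATP6V1A had an r of 0.93, ATP6V1D 0.93 and ATP6V0D1 0.92. Of the 8848 probes above background on every array and with no outlier-flagged value missing, 0.475% were at least as close to the same mean as ATP6V1A, 0.452% as close as ATP6V1D and 0.746% as close as ATP6V0D1. ATP6V1H followed at 0.83, ATP6V1E1 at 0.78, ATP6V1C1 at 0.75, ATP6V0C at 0.73 and ATP6V0B at 0.70, with 2.15% to 6.35% of probes as close. ATP6V0A1 had an r of 0.096, which 34.1% of probes matched or passed.

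**Figure D3:**
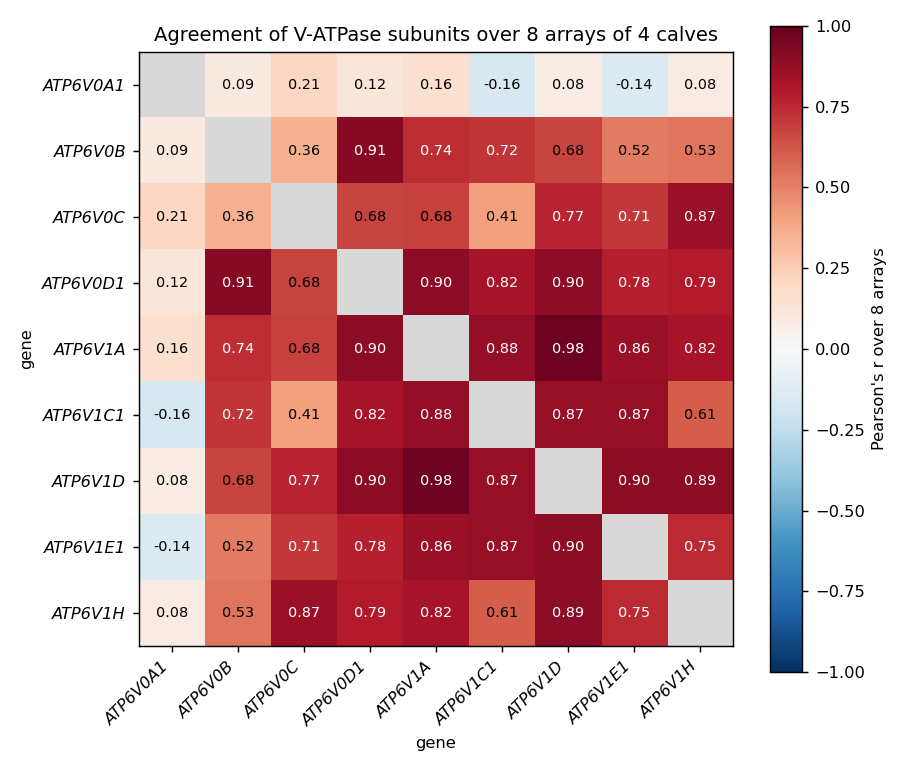
Pearson's r between each pair of the 9 tested members over the 8 arrays, on a colour scale from -1 to 1, with the value in each cell and the diagonal in grey. All rows but the first are mostly red, with 0.98 for ATP6V1A and ATP6V1D, while ATP6V0A1 stays between -0.16 and 0.21.

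The same arrays tended to be highest or lowest. The control array of calf 23 was the highest for 7 of the 9 tested members, and the WP array of calf 21 the lowest for 7. Averaged over the members, each centred on its own mean, the control arrays of calves 23 and 21 stood at 0.43 and 0.17 and the WP array of calf 25 at 0.083. The remaining control arrays, of calves 25 and 24, stood at -0.025 and -0.15, and the WP arrays of calves 24, 23 and 21 at -0.074, -0.085 and -0.35. The diets therefore overlapped, and the control arrays of calves 24 and 25 lay among the WP arrays.

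**Figure D4:**
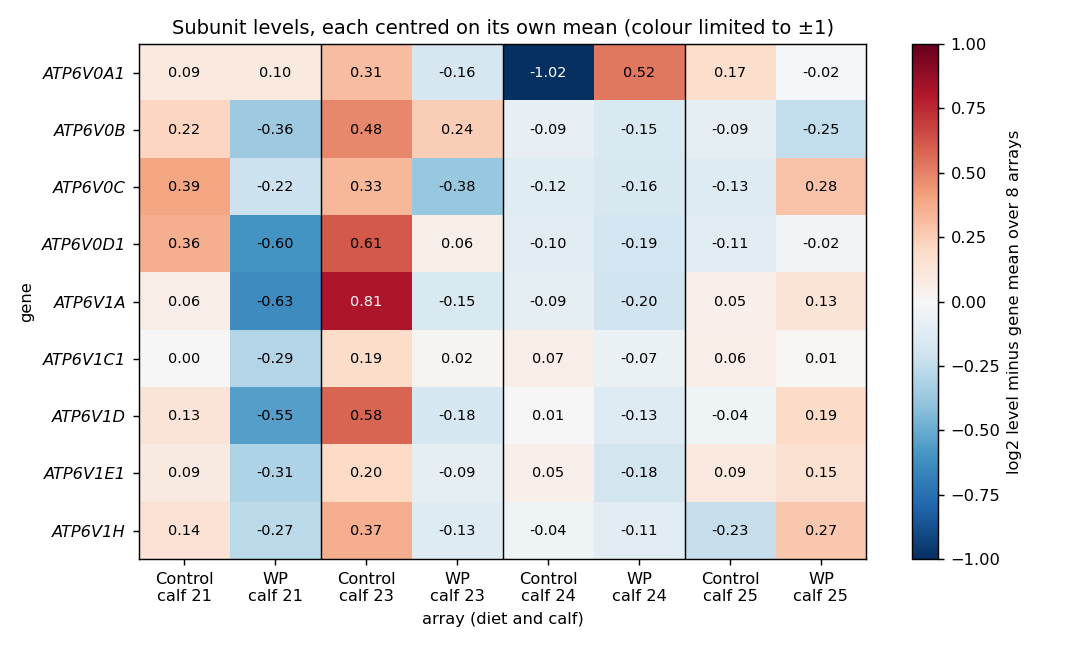
Level of each tested member on each of the 8 arrays minus that member's mean over the arrays (log2), with the value in each cell, colour limited to -1 and 1, and vertical lines between calves. The control array of calf 23 is red for every member, up to 0.81 for ATP6V1A, and the WP array of calf 21 is blue for every member except ATP6V0A1.

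The genes with the most similar profile, chosen by r with the members' mean among probes above background on all arrays, were DEDD2 (0.99), SRP14 (0.98), ADA (0.98), DHRS9 (0.97) and PRDM1 (0.97). SRP14 encodes a protein of the signal recognition particle, ADA is adenosine deaminase and PRDM1 a transcriptional repressor. Of the 8848 probes, 3.20% reached an r of 0.8. A similar split of calves follows from this choice by profile. For ADA the differences were -1.75 for calf 21, -1.80 for calf 23, -0.011 for calf 24 and 0.17 for calf 25. Its mean of -0.85 ± 1.08 (SD, n = 4) did not pass either (adjusted p = 0.658 in limma). DHRS9, a retinoid dehydrogenase, had a mean of -0.93, PRDM1 -0.46, DEDD2 -0.33 and SRP14 -0.15.

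The remaining subunits and accessory proteins had no common direction in their means. Of 16 genes, 11 were tested, 5 of them below 0 and 6 above, against 35.6% of all tested probes below 0. Their median was 0.058, and 0 passed an adjusted p of 0.05 in limma. By calf, their medians were -0.16, -0.31, 0.24 and 0.14 in calves 21, 23, 24 and 25. Calves 21 and 23 were thus the lower ones here too. ATP6V1C2, the alternative C subunit of more restricted tissue range, had the largest difference. Its control levels were 2.27, 2.61, 1.06 and 1.29 and its WP levels 0.53, 0.30, 0.57 and 1.83 in calves 21, 23, 24 and 25. The control signal was on average 2.0-fold that on WP, a difference of -1.0 ± 1.28 (SD, n = 4; adjusted p = 0.658 in limma), with -0.56 without calf 23 and -1.51 without calf 25. Its r with the members' mean was 0.87.

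ATP6AP2, the accessory protein also known as the prorenin receptor, was lower in each calf by a like amount. Its control levels were 2.37, 2.93, 2.92 and 2.83 and its WP levels 2.06, 2.48, 2.54 and 2.54, so that each calf was lower on WP although the diets overlapped through calf 21. The difference of -0.36 ± 0.074 (SD, n = 4) had the smallest unadjusted p among the V-ATPase genes, 0.021, and an adjusted p of 0.658 in limma. It ran from -0.38 to -0.33 when any calf was left out, and it was -0.61 within slide row 1 and -0.11 within row 2.

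ATP6V1G1, the peripheral stalk partner of the E subunit, had a difference of -0.23 ± 0.44 (SD, n = 4) and an r of 0.95 with the members' mean, which 0.350% of probes matched or passed. It was -0.060 without calf 23 and -0.38 without calf 25. The ATP6V1G1 probe was designed on an expressed sequence tag, and which strand it reads was not tested. ATP6V0E1, a small membrane subunit, had a difference of -0.0081 ± 0.11 (SD, n = 4) with levels from 4.29 to 4.82. ATP6AP1, an accessory subunit, was above background on all 4 arrays of the control diet but on 1 array of the WP diet. It gave -0.51 ± 0.97 and 0.16 with normexp background correction, so its direction is not set. TCIRG1, the a3 membrane subunit of osteoclasts and immune cells, was above background on 2 arrays of each diet, at 0.60 ± 0.80 and -0.15 with quantile scaling. ATP6V0A2, ATP6V1F, ATP6V1G2 and ATP6AP1L had means of 0.17, 0.058, 0.20 and 0.11. The first 3 turned below 0 without calf 24, and ATP6AP1L without calf 25.

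ATP6V0D2, ATP6V1E2 and ATP6V1G3, forms of the d, E and G subunits with a restricted tissue range, were not above background on any array. ATP6V0A4, the membrane subunit of acid-secreting kidney cells, and ATP6V0E2 were above it on the WP array of calf 24 alone. The ATP6V1F probe was, like that of ATP6V1G1, designed on an expressed sequence tag, and which strand of the gene it reads was not tested. Its values may therefore not measure the ATP6V1F transcript. It counts among the 11 tested genes, and their median of 0.058 is its own difference.

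Genes for assembly of the pump had small differences. Of the 6 tested, 2 were below 0 and 4 above, with a median of 0.013. VMA21, the chaperone of V0 assembly, had differences within -0.022 to 0.055 in the 4 calves and a mean of 0.019 ± 0.033 (SD, n = 4; adjusted p = 0.960 in limma). CCDC115 and TMEM199, its partners in assembly, gave -0.21 ± 0.19 and 0.0075 ± 0.23. ROGDI, a component of the complex that rejoins V1 and V0, gave 0.23 ± 0.18 (SD, n = 4; adjusted p = 0.659 in limma) and was higher in 4 of 4 calves. The stress-response proteins NCOA7 and OXR1, which bind the pump, gave -0.060 ± 0.49 and 0.092 ± 0.34, and WDR7 and TBC1D24 were too dim to test.

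The lysosome, where the pump is found in most cells, gave a median near 0. Of 39 genes for lysosomal membrane proteins and hydrolases, all tested, 23 were below 0 and 16 above. Over all tested probes 35.6% were below 0. The lysosomal median was -0.030, with 0 genes past an adjusted p of 0.05 in limma. By calf, the medians were -0.15, -0.24, 0.0093 and 0.00016 in calves 21, 23, 24 and 25. This list was thus also lower in calves 21 and 23, by less than the members. The smallest p belonged to OSTM1, a partner of the lysosomal chloride exchanger CLCN7. It had control levels of -1.34, -1.21, -0.98 and -1.23 and WP levels of -1.56, -1.38, -1.63 and -1.50, so that all 4 WP arrays lay below all 4 control arrays, as for 1.19% of probes. The difference was -0.33 ± 0.22 (SD, n = 4; adjusted p = 0.658 in limma). Similarity to the members' profile also varied within the lysosome: among genes picked after their values were seen, the protease LGMN had an r of 0.93 with the members' mean and the lipase LIPA -0.82.

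A list of 14 tested genes held TFEB-type transcription factors, which switch on lysosomal and V-ATPase genes. It also held Ragulator and Rag proteins, which dock on the pump, and FLCN, FNIP1, FNIP2, MTOR, RHEB and SLC38A9. Of the 14 genes, 6 were below 0 and 8 above. Their median was 0.040. TFEB itself had control levels of 1.49, 1.71, 1.69 and 1.74 and WP levels of 1.74, 1.72, 1.83 and 1.65, a difference of 0.076 ± 0.15 (SD, n = 4; adjusted p = 0.840 in limma). The smallest p values belonged to MITF at 0.94 ± 1.14, FNIP1 at 0.42 ± 0.57 and MTOR at 0.30 ± 0.45 (SD, n = 4), none past the threshold (adjusted p from 0.658 to 0.672 in limma). All 3 had their largest difference in calf 24, whose WP array stood apart, at 2.36, 1.08 and 0.95.

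Markers of stromal cells were mostly higher on WP, as were 6591 of all 10236 tested probes, and those of immune cells were mixed. In bulk tissue, fewer cells of a type and less RNA per cell cannot be told apart. The 9 tested macrophage and dendritic cell markers, of 12 with a probe, had 4 means below 0 and 5 above, with median differences of -0.88, -0.060, 0.84 and 0.69 in calves 21, 23, 24 and 25. Their mean level was -2.15 to -1.12 on control arrays and -2.10 to -1.17 on WP arrays, and ITGAM and MARCO were not above background anywhere. Of 10 tested fibroblast markers of 11, 9 were above 0, with a median of 0.64, medians of -0.29, 0.38, 1.19 and 0.78 in the calves, and mean levels of -1.30 to -0.031 on control and -0.51 to 0.27 on WP. Of 10 tested endothelium markers of 11, 9 were above 0, with a median of 0.41, medians of -0.24, 1.61, 0.12 and 0.48 in the calves, and mean levels of -2.32 to -1.41 on control and -1.76 to -1.08 on WP; CDH5 was not above background anywhere. All 6 tested smooth muscle markers of 8 were above 0, with a median of 0.42, medians of 0.17, 0.42, 0.51 and 0.044 in the calves, and mean levels of -1.65 to -1.44 on control and -1.72 to -0.43 on WP. The 7 tested T and NK cell markers of 11 had a median of -0.040, with 4 below 0, and medians of -0.31, 0.038, 0.75 and 0.32 in the calves. Their mean level was -3.54 to -2.05 on control and -3.39 to -2.16 on WP. The 5 tested B and plasma cell markers of 8 had a median of -0.17, with 3 below 0, and medians of -0.099, -0.092, 0.18 and -0.34 in the calves. Their mean level was -1.95 to -1.0 on control and -1.96 to -1.60 on WP, and MS4A1 was not above background anywhere. The calf 24 medians of these dim markers, the highest of the calves for all these lists but endothelium, include the WP array that stood apart. No list held a gene past an adjusted p of 0.05 in limma. At an unadjusted p under 0.05, 2 fibroblast, 1 endothelium and 1 smooth muscle marker were higher on WP and 1 rumen epithelium marker was lower. Of all 10236 tested probes, 536 were higher and 179 (1.75%) lower at that threshold. Of the 16 rumen epithelium markers 7 were below 0 and 9 above, with medians of 0.53, 0.26, -0.19 and -0.084, and mean levels of 3.37 to 3.91 on control and 3.41 to 3.79 on WP. The members' medians were lowest in calves 21 and 23, where the epithelial medians were above 0. The part of cell composition in the members' differences was not tested.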

How the data were processed

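Rumen epithelium RNA (500 ng per sample, labelled with Cy3, per the labels) was measured on 8 single-colour arrays of design 072598 on 1 slide. The deposited scanner files hold spot intensity; the processed signal was background-corrected within each array by Agilent's Feature Extraction software, version 11.0.1.1 in the headers and 9.5 per the submitters' processing notes. Values in the table the authors deposited are on a log2 scale. A column of it matched the scanner file's processed signal after log2, less a constant for that array (slopes 0.99998 to 1.00, column medians -3.07 to -2.26), so scale and direction are known, genes were not centred, and it served as an alternative. Slide rows were read from the array position given with each file.

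Control spots and outlier-flagged spots were left out, spots of a probe were averaged, and log2 signals were scaled to the array's 75th percentile. No spot was saturated. Of 15008 probes, 10236 (68.2%), above background (well-above flag) on 4 or more of the 8 arrays, were tested with limma 3.58.1 in R 4.3.3 (two-sided, Benjamini-Hochberg, threshold 0.05), with calf as a block because the same animals are on both diets per the labels. A calf's arrays correlated weakly in their deviations from the diet means (r of 0.0084, 0.20, 0.060 and 0.047 in calves 21, 23, 24 and 25). Names come from the array files, with 11194 probes renamed or checked by accession, 3085 by symbol and 38 by older symbol in the RefSeq table of ARS-UCD2.0, used for names only. On simulated data with 10194 probes and independent noise, 48.5% of 2-fold and 93.5% of 4-fold changes were recovered. Smaller changes, such as those of the members, were not simulated. Replicates are separate animals, and the number of arrays limits the precision.

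The members and gene lists were chosen with earlier results of these data known. Genes named are all members, the tested genes of the other subunit and assembly lists, the 3 of smallest p of the lysosomal and TFEB lists, and the 5 most similar in profile; some genes that this rule names are not reported here. Alternatives covered background correction, scaling, the authors' table, filters, blocks, slide row, prior, probe choice and each calf left out.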

Additional observations from a re-analysis of the deposited data

Results flagged for a closer look

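Among 78 groups of 4 values checked (levels on each diet and within-calf differences of the tested V-ATPase and assembly genes), 7 held a value far from the other 3 by Dixon's criterion, where chance alone gives about 1 in 20. On the control diet, ATP6V0A1 was low in calf 24 (-5.00, others -3.89 to -3.68), while calf 23 was high for ATP6V1A (0.22, others -0.68 to -0.53), ATP6V1G1 (3.11, others 2.42 to 2.52) and ATP6V0A2 (-3.25, others -3.51 to -3.49). On the WP diet, calf 24 was high for ATP6V0A2 (-2.32, others -3.67 to -3.52) and low for OXR1 (-0.077, others 0.33 to 0.36), and calf 21 was low for ATP6AP2 (2.06, others 2.48 to 2.54).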

How the results depend on the processing

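Over 16 alternatives, 0 probes passed the adjusted threshold in each, and the smallest adjusted p over all probes was 0.346. The median difference of the tested members stayed below 0, from -0.32 to -0.15, both ends reached by leaving out a calf, and 7 to 9 of the 9 were lower. ATP6V0C, ATP6V0D1, ATP6V1A, ATP6V1C1, ATP6V1D and ATP6V1E1 kept their direction in all 16. Not all 16 could turn a direction. Changes of filter, block, prior and probe averaging cannot alter a member's difference. The authors' table holds the same signals less a constant per array. Background correction, scaling, single slide rows and leaving out a calf could alter it. ATP6V0A1 turned to -0.42 with quantile scaling and ran from -0.22 to 0.45 with a calf left out. ATP6V0B turned to 0.030 within slide row 1, and ATP6V1H ran from -0.32 to 0.0094 with a calf left out. Quantile scaling moved the median of all probes from 0.087 to -0.015. The cause of these turns was not tested. Without the replicate block (calf) 0 probes passed, so the block changed no call. The members' differences, 8 of 9 lower with a median of -0.24, stayed the same, which the paired layout fixes in advance. The median r between members ran from 0.66 to 0.85 over 10 alternatives, and was highest with each calf's mean removed. Each member had 1 probe, so averaging probes changed nothing.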
